A study of Homo sapiens with 6 samples.

Results

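The genes described here are 9 transcripts that respond to YAP and TAZ or to the extracellular matrix, namely CCN1, CCN2, THBS1, AXL, ANKRD1, AMOTL2, LATS2, AJUBA and TGFB2. They were chosen by name, and each was read from the probe set that the platform annotation pairs with that symbol alone. All 9 had such a probe set, 1 each, among the 18417 genes that could be tested. The cells were HCT116, an established human colorectal carcinoma line, grown in DMEM with serum and collected 48 h after transient transfection with a double-stranded siRNA. Of 6 Affymetrix whole-transcript arrays, 3 were labelled control, which received an siRNA against GFP, and 3 were labelled siChe-1, which received an siRNA against the AATF product, known as Che-1. No other treatment or allele is named, and both groups went through the same transfection. The study asked how depletion of Che-1 changes the transcriptome. Values are log2 intensities after RMA, a method that corrects background, equalises arrays and summarises the probes of a gene.

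YAP and TAZ are transcriptional coactivators that bind DNA through the TEAD proteins. The Hippo kinases LATS1 and LATS2 phosphorylate them and keep them in the cytoplasm, whereas cell spreading, a stiff matrix and actin tension favour their entry into the nucleus. Their targets include secreted matrix proteins, receptors and inhibitors of the pathway itself, and many of these genes also respond to TGF-beta, SRF or AP-1.

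The check on the targeted gene did not bear out the labels. AATF read 7.55, 7.75 and 7.55 in the arrays labelled control and 8.53, 8.81 and 8.87 in those labelled siChe-1. It was thus 2.17-fold higher where its depletion was labelled (log2 difference 1.12 ± 0.13, SE, limma adjusted p = 0.00122). Groups are therefore named by their labels, and higher or lower is said of the arrays labelled siChe-1. If the labels had been exchanged, each direction given here would be the opposite. The epithelial identity of the line could be read from EPCAM, KRT8, KRT18 and KRT19, with control means from 10.4 to 12.5, whereas VIL1, CDH17, LGR5 and GPA33 read 3.63 or less. Of 11 colon epithelial markers, KRT19 fell and 10 did not pass. Of the 11 differences, 4 were below 0, and the median was 0.01. Groups did not overlap for 3 lower and 2 higher markers, beside 13.3% and 10.6% of all genes. The 2 were CDH1 (0.33, limma adjusted p = 0.167) and CDX1 (0.43, limma adjusted p = 0.12). The summed linear intensity of the list was 14300 to 14600 in the arrays labelled control and 10600 to 11200 in those labelled siChe-1. This sum is carried by the brightest genes, EPCAM and the keratins. Markers of fibroblasts or muscle (9), leukocytes (6) and endothelium (5) gave no call by limma (unadjusted p under 0.05 for 2, 1 and 0 of them). Their summed intensities were 342 to 373, 104 to 109 and 77.3 to 82.3 in the arrays labelled control, against 354 to 407, 111 to 124 and 81.8 to 93.9. The part of these shifts in the results below was not tested. The siChe-1 replicate 1 array stood apart from the other arrays of its label, with SDs of the difference over all probe sets of 0.474 and 0.436 against 0.285 between the other pair, so results are also given without it. Separate cultures are not named for the replicates, so p-values cover the spread among these 6 arrays, which may be technical. In bulk RNA, fewer expressing cells and less RNA per cell cannot be told apart.

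The promoters of the genes were searched for TEAD sites, since YAP and TAZ reach DNA through TEAD. TEAD proteins recognise GGAATG, which reads CATTCC on the other strand. Windows from 250 bases before to 50 bases after each annotated start, taken from RefSeq (GRCh38.p14), were found for 8 of the 9 genes in 11 windows, CCN1 having no entry. The letters GGAATG, searched on both strands, were in 8 of the 11 windows and in at least 1 window of 8 of the 8 genes, against 14.0% of all 35116 windows. Among tested genes with a window, 15.5% held them. Because the genes were chosen as known targets, this share is a description. The upstream 250 bases are shown for CCN2, whose window holds the most copies, and for 3 genes that fell, with the TEAD letters in capitals.
CCN2 (chr6:131951373-131951622, minus strand): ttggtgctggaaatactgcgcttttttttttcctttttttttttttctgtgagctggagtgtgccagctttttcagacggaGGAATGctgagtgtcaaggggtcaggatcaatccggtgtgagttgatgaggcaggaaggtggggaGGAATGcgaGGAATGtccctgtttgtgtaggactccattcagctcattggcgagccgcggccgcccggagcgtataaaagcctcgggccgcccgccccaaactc
THBS1 (chr15:39580829-39581078, plus strand): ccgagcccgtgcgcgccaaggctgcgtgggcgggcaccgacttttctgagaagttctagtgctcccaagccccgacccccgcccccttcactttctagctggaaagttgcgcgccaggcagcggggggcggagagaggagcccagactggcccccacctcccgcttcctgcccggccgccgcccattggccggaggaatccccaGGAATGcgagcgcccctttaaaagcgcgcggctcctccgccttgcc
AMOTL2, downstream start (chr3:134374448-134374697, minus strand): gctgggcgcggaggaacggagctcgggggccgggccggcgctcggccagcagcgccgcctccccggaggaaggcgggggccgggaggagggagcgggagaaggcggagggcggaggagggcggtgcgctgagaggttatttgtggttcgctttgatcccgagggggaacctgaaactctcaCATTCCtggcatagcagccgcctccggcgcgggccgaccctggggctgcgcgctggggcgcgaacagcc
AXL, downstream start (chr19:41226505-41226754, plus strand): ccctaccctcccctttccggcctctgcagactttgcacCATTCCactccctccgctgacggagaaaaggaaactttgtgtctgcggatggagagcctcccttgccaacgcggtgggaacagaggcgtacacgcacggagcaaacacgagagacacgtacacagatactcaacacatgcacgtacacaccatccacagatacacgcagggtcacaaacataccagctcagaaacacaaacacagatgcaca

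In CCN2 the letters began 169, 104 and 95 bases before the start, and 3 or more copies were present in 45 of the 35116 windows (0.13%). They began 46 bases before the start of THBS1, 69 before the downstream start of AMOTL2 and 212 before the downstream start of AXL. The windows of the upstream starts of AXL and AMOTL2 did not hold them, and the same was true of AJUBA. For the genes that did not pass the test, 30 bases around each match are shown, again with the TEAD letters in capitals.
ANKRD1, 220 bases before the start (chr10:90921290-90921319, minus strand): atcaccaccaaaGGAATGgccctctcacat
ANKRD1, 128 bases before the start (chr10:90921198-90921227, minus strand): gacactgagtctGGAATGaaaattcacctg
LATS2, from base 10 of the transcript (chr13:21061560-21061589, minus strand): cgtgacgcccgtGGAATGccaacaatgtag
AJUBA, 59 bases before the downstream start (chr14:22976884-22976913, minus strand): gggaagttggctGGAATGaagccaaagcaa
TGFB2, 185 bases before the start (chr1:218345139-218345168, plus strand): tgtcagggcgcaCATTCCacctccttcctc

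The letters TGANTCA, where N is any base, were taken as the AP-1 letters. They were in 1 of the 11 windows, that of ANKRD1, 195 bases before the start, against 7.71% of all windows. That match read TGATTCA, whereas the AP-1 site has C or G in the middle, so the counts include looser matches. A CArG box, the SRF site, was in 0 of the 11, against 1.29% of all windows. Presence of the TEAD letters did not separate the genes that fell from those that did not, since all 8 genes with a window held them. Over the 14239 tested genes with a window, 3.03% of the 2213 with the TEAD letters were lower and 2.64% of the 12026 without. For the AP-1 letters the shares were 4.65% of 1139 and 2.53% of 13100. These shares are descriptions across genes, and a match is not a bound site.

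**Figure D1:**
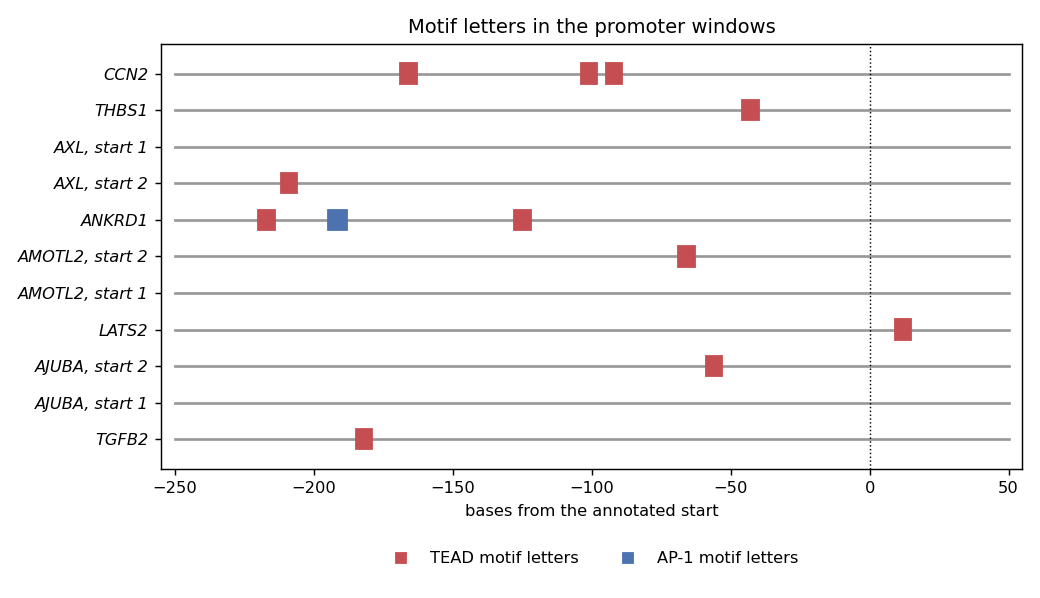
Promoter windows of 8 of the genes (1 line per annotated start, start 1 being the upstream one), with position in bases from the start on the x axis and blocks drawn to scale where the TEAD letters (red) or the AP-1 letters (blue) occur. CCN2 has 3 TEAD blocks, ANKRD1 has 2 and an AP-1 block, and 3 windows have none.

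Of the 9 genes, 4 fell in the arrays labelled siChe-1, CCN1, THBS1, AXL and AMOTL2, and 5 did not pass (limma, adjusted p under 0.05 over 18417 genes). Over all genes tested, 3.72% passed in either direction, 2.52% being lower and 1.19% higher. The same 4 genes had groups that did not overlap, beside 24% of all genes with separate groups in either direction and 13.3% in that direction. The median difference over the 9 genes was -0.22 on the log2 scale, beside 0.005 over all genes, and 8 of 9 differences were below 0, beside 49.1% of all genes. Earlier results of these data were known when the genes were chosen. The count of 4 was the same without siChe-1 replicate 1, where the median was -0.37 and 8.5% of all genes passed (4.48% lower). The count was 2, CCN1 and THBS1, when control replicate 1, control replicate 3 or siChe-1 replicate 3 was omitted, fits in which 1.08% to 1.36% of all genes were lower.

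**Figure D2:**
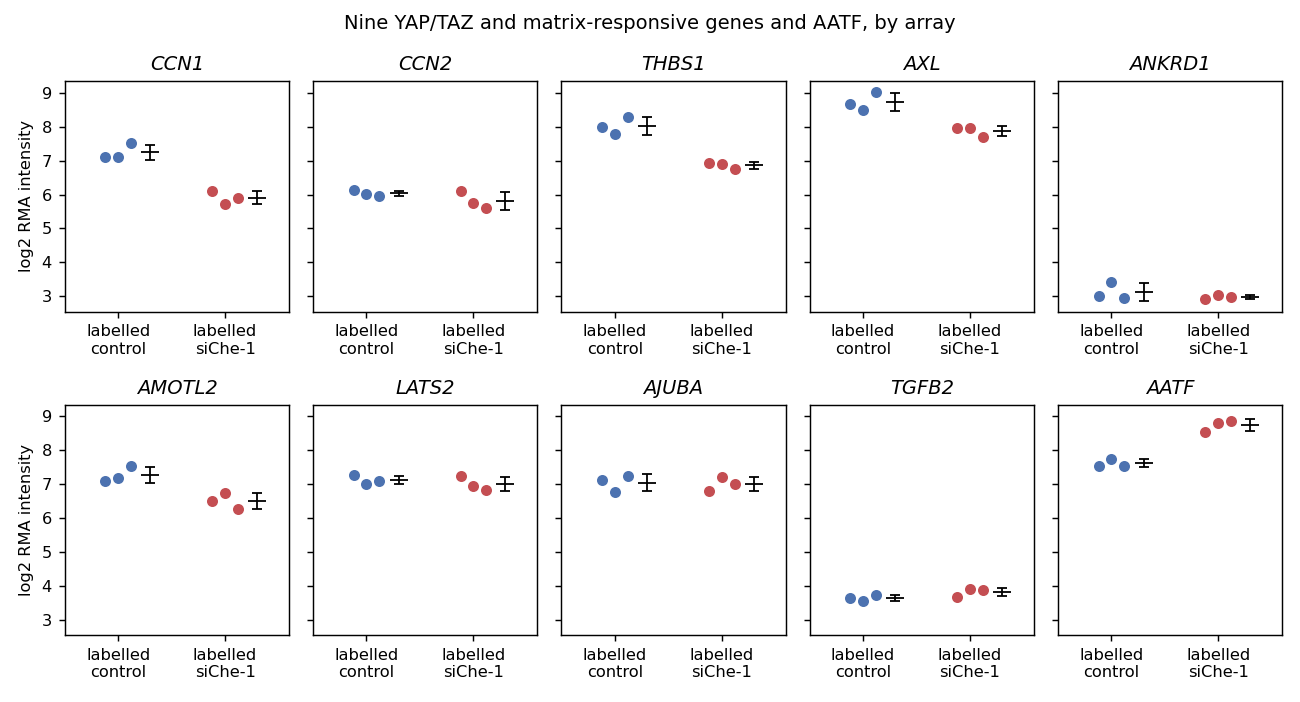
Log2 RMA intensity (y axis) of the 9 genes and AATF in each of the 6 arrays (points in replicate order), by label on the x axis, with the mean and SD of 3 arrays beside them as a black bar. CCN1, THBS1, AXL and AMOTL2 are lower in every array labelled siChe-1 than in every array labelled control, AATF is higher, and the other groups overlap.

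Of the genes for secreted proteins, CCN1 and THBS1 fell and CCN2 and TGFB2 did not pass. CCN1 encodes a cysteine-rich matricellular protein that binds integrins and is among the most used reporters of YAP activity. It read 7.09, 7.11 and 7.51 in the arrays labelled control and 6.09, 5.73 and 5.90 in those labelled siChe-1. Every array labelled siChe-1 was lower than every control array, with a gap of 1.0 between the groups. The difference was -1.33 ± 0.15 (log2, SE, 95% interval -1.67 to -0.99), the largest of the 9 in size. It was a 2.51-fold fall, with limma adjusted p = 0.000923. CCN1 passed in each of the 6 fits that left out 1 array.

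CCN2, its close relative and the other standard reporter, did not pass. It read 6.12, 6.01 and 5.95 in the arrays labelled control and 6.10, 5.74 and 5.59 in those labelled siChe-1. The siChe-1 replicate 1 array lay within the control range, and the other arrays of that label were below it. The difference was -0.22 ± 0.15 (95% interval -0.55 to 0.11, limma adjusted p = 0.496), so a measured fall as large as that of CCN1 lay outside the interval. CCN2 read near TYROBP, the brightest of the leukocyte markers (control means 2.41 to 5.84). A part of its signal may thus be background, which would compress its difference. In the arrays labelled siChe-1, CCN1 (mean 5.91) also read near TYROBP (mean 6.07 there). The 2.51-fold fall of CCN1 may therefore be compressed as well. What background does to the contrast of CCN1 and CCN2 was not tested. Without siChe-1 replicate 1 it was -0.37 (adjusted p = 0.0793) and without siChe-1 replicate 3 it was -0.11 (adjusted p = 0.814). With array weights, which give less weight to arrays that deviate, CCN2 read -0.40 and passed (adjusted p = 0.0252). The change of CCN1 minus the change of CCN2 was -1.11 on the log2 scale (SD 0.19 over the arrays labelled siChe-1 and 0.31 over the control arrays, n = 3 each). An exact two-sided permutation test of this contrast gave p = 0.1, the smallest that 3 arrays against 3 allow.

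THBS1 encodes thrombospondin-1, a matrix glycoprotein that binds CD47 and CD36 and can activate latent TGF-beta. It read 8.0, 7.78 and 8.29 in the arrays labelled control and 6.94, 6.91 and 6.74 in those labelled siChe-1. The groups were separated by 0.84, and the arrays labelled siChe-1 lay close together. The fall was 2.24-fold (log2 difference -1.16 ± 0.15, SE, 95% interval -1.49 to -0.83, limma adjusted p = 0.00186), and it passed in all 6 fits with 1 array left out. TGFB2, a TGF-beta ligand, read 3.66, 3.55 and 3.74 against 3.68, 3.91 and 3.90, with a difference of 0.18 ± 0.12 (95% interval -0.09 to 0.46, adjusted p = 0.494). TGFB2 was the single gene of the 9 with a difference above 0. Its level lies in the range of endothelial markers (control means 2.86 to 5.31) that an epithelial line should lack, so it is not shown to be above background.

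AXL, a receptor tyrosine kinase of the TAM family, fell. It read 8.67, 8.49 and 9.03 in the arrays labelled control and 7.96, 7.97 and 7.70 in those labelled siChe-1, and the groups did not overlap. The fall was 1.81-fold (log2 difference -0.86 ± 0.16, SE, 95% interval -1.21 to -0.51, limma adjusted p = 0.0156). It did not pass without control replicate 1 (adjusted p = 0.0684), control replicate 3 (0.0691) or siChe-1 replicate 3 (0.0645). GAS6, the ligand of AXL, also fell, from 7.46, 7.44 and 7.73 to 6.16, 6.32 and 6.12, which is 2.53-fold (adjusted p = 0.00027). Of the other TAM receptors, TYRO3 (-0.08, adjusted p = 0.831) and MERTK (0.13, adjusted p = 0.708) did not pass.

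Of the genes whose products feed back on the pathway, AMOTL2 fell and LATS2 and AJUBA did not pass. AMOTL2, an angiomotin-family scaffold that holds YAP at junctions and actin, read 7.09, 7.19 and 7.54 in the arrays labelled control and 6.52, 6.74 and 6.27 in those labelled siChe-1. The groups did not overlap, and the gap between them was 0.35. The fall was 1.70-fold (log2 difference -0.76 ± 0.16, SE, 95% interval -1.12 to -0.40, limma adjusted p = 0.0315). AMOTL2 passed in 2 of the 6 fits with 1 array left out, the adjusted p being 0.072, 0.107 and 0.131 without control replicates 1, 2 and 3 and 0.109 without siChe-1 replicate 3.

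LATS2, the kinase that phosphorylates YAP and TAZ, read 7.26, 7.02 and 7.08 against 7.23, 6.95 and 6.82, so the groups overlapped. Its difference was -0.12 ± 0.14 (95% interval -0.43 to 0.19, limma adjusted p = 0.724). The difference of LATS2 was -0.24 without siChe-1 replicate 1 (adjusted p = 0.27), -0.05 without control replicate 1 (adjusted p = 0.926) and -0.029 without siChe-1 replicate 3 (adjusted p = 0.959). AJUBA, a LIM protein that restrains LATS kinases under tension, read 7.13, 6.77 and 7.24 against 6.81, 7.21 and 7.01. Its difference was -0.04 ± 0.16 (95% interval -0.39 to 0.31, adjusted p = 0.934), so a fall of the size of AMOTL2 lay outside the interval, and its sign turned under 4 alternatives, 3 of them leaving out 1 array. ANKRD1, a nuclear ankyrin-repeat protein best known from stressed muscle, read 3.0, 3.44 and 2.96 against 2.93, 3.04 and 2.99. These values lie among those of leukocyte markers such as CD3E (3.45 in the arrays labelled control), so ANKRD1 is not shown to be above background and its difference of -0.15 (adjusted p = 0.675) cannot be read as a change or as its absence.

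**Figure D3:**
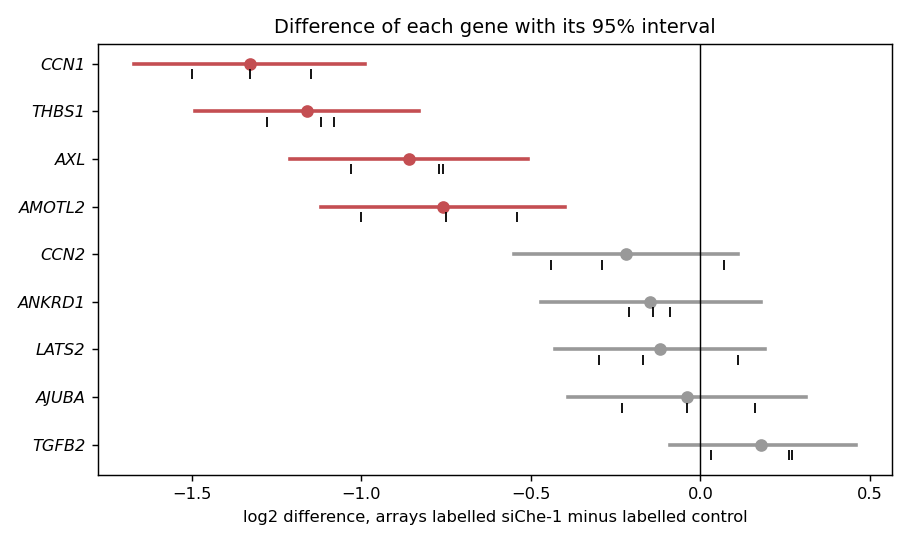
Log2 difference of each gene between the labels, siChe-1 minus control (x axis), as a point with its 95% limma interval, red where the adjusted p was under 0.05 and grey otherwise. Black ticks under each line are the 3 arrays labelled siChe-1 minus the mean of the control arrays, which lie below -0.5 for all 4 genes that fell.

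Within the arrays labelled siChe-1, replicate 3 had the lowest value of all 6 arrays for 5 of the 9 genes, and replicates 1 and 2 for 1 each. Control replicate 2 had the lowest value for 2. Among the control arrays, replicate 3 had the highest value for 5 of the 9. How often each array was lowest or highest over all genes was not counted. The median of the 9 genes relative to the control mean was -0.23, -0.29 and -0.44 in siChe-1 replicates 1, 2 and 3, and -0.03, -0.10 and 0.19 in the control arrays. Over all genes the same median lay between -0.01 and 0.015 in every array. CCN2 and LATS2 had the most alike profiles of the 9 (root mean squared distance 0.085 log2 over 6 arrays, each profile taken relative to its control mean), followed by AXL and AMOTL2 (0.12) and by CCN1 and THBS1 (0.18). Among 9134 genes outside the lists and above the median level, NOCT (0.077), HELZ2 (0.11) and NFE2L3 (0.14) lay nearest to CCN1. TINAGL1 (0.091), ELK3 (0.11) and IFITM3 (0.11) lay nearest to THBS1, and FXYD5 (0.077), ASAP2 (0.094) and NFKB2 (0.10) nearest to AXL. Because profiles are relative to the control mean, genes with a similar difference between the labels lie near each other. NOCT, HELZ2 and NFE2L3 differed by -1.32, -1.37 and -1.34. Shared regulation was not tested.

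Genes of the Hippo pathway encode YAP, TAZ and TEAD or act on them, and LATS2, AMOTL2 and AJUBA of the 9 belong to it too. Of 27 other Hippo pathway genes, limma called 2 lower and 0 higher, and 25 did not pass. The share called was 7.41%, beside 3.72% of all genes. At an unadjusted p under 0.05 there were 6, beside 17.7% of all genes, and the list median was -0.03. WWC1, which encodes the LATS activator KIBRA, was 1.52-fold lower (adjusted p = 0.0391), and MAP4K4, a kinase that can act on LATS, was 1.48-fold lower (adjusted p = 0.0497). WWC1 lost its call in 4 of the 6 fits with 1 array left out and MAP4K4 in 5. YAP1 read 9.08, 8.90 and 8.71 against 8.35, 8.46 and 8.43, and its groups did not overlap. Its difference of -0.48 ± 0.13 did not pass (adjusted p = 0.0726), and it passed when arrays were centred on their medians (-0.55, adjusted p = 0.0413) or weighted (-0.49, adjusted p = 0.00812). WWTR1, which encodes TAZ, differed by -0.02 (95% interval -0.26 to 0.23, adjusted p = 0.961). TEAD1 (0.20), TEAD2 (0.30), TEAD3 (0.19) and TEAD4 (-0.18) did not pass, with adjusted p from 0.342 to 0.628. Of the 27, groups did not overlap for 4 genes that were lower and 6 that were higher, beside 13.3% and 10.6% of all genes. LIMD1, a relative of AJUBA, differed by -0.52 (adjusted p = 0.0853). AMOT, a relative of AMOTL2, differed by 0.61 (adjusted p = 0.0957), which was the largest difference of the list in size, and STK3, the Hippo kinase MST2, by 0.37 (adjusted p = 0.129). AMOT read 4.13 to 5.26, within the range of the endothelial markers, so it may be background. The top of that range is CLDN5 alone (control mean 5.31), the next marker, CDH5, being at 3.63.

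Among 15 further genes of a widely used YAP/TAZ target signature, limma called 5 lower (33.3%, beside 2.52% of all genes) and 0 higher, with a median of -0.25 beside 0.005. NT5E, the ecto-enzyme CD73 that makes adenosine, read 9.69, 9.43 and 9.83 in the arrays labelled control and 6.49, 6.92 and 6.81 in those labelled siChe-1, a 7.52-fold fall (adjusted p = 2.25e-06). F3, tissue factor, the starter of coagulation, read 8.59, 8.29 and 8.35 against 6.97, 6.71 and 6.77, a 3.01-fold fall (adjusted p = 8.89e-05). Both NT5E and F3 passed in all 6 fits with 1 array left out. NUAK2, an AMPK-related kinase, was a measured 1.99-fold lower, FJX1 1.6-fold lower and GADD45A, a growth arrest gene, 1.44-fold lower, with adjusted p of 0.0248, 0.0164 and 0.0374. NUAK2 read 5.33, 5.33 and 4.78 in the arrays labelled siChe-1, near the top of the range of endothelial markers, and the fold is uncertain for that reason. The count was 5 without siChe-1 replicate 1, where 4.48% of all genes were lower. It was 2 when control replicate 1, control replicate 3 or siChe-1 replicate 3 was omitted, with 1.14%, 1.08% and 1.36% of all genes lower. It was 3 without control replicate 2 (1.22% of all genes lower) or siChe-1 replicate 2 (1.88%). Of the 15, 7 had separate groups with lower values and 1, ARHGEF17, with higher values (0.41, adjusted p = 0.166), beside 13.3% and 10.6% of all genes.

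In the neighbouring programmes, 1 gene was called in each list, or 5.26% to 8.33% of the members beside 3.72% of all genes. Of 16 SRF and cytoskeletal genes, FHL2, a LIM-domain cofactor, was 1.69-fold lower (adjusted p = 0.00858) and 15 did not pass, with a median of -0.10. FHL2 read 7.76, 7.64 and 7.64 against 6.96, 7.06 and 6.77, and it lost its call without control replicate 1 (adjusted p = 0.0601). Of 19 TGF-beta and matrix genes, SMAD3, a signal transducer of the TGF-beta receptors, was 1.5-fold lower (adjusted p = 0.0337, lost in 5 of the 6 fits with 1 array left out) and 18 did not pass, with a median of 0.06. TGFB1 read -0.56 (adjusted p = 0.20) and its receptor gene TGFBR1 0.51 (adjusted p = 0.0972). Of 12 relatives and binding partners of the 9 genes, GAS6 was lower and 11 did not pass, with a median of -0.08. The other 4 CCN genes, CCN3 to CCN6, differed by -0.32 to -0.05, and none passed by limma (CCN3 at an unadjusted p of 0.0236). In each of these lists limma called 0 genes higher. Groups did not overlap for 3 lower and 1 higher of the 16, 3 lower and 4 higher of the 19, and 2 lower and 0 higher of the 12. Over all genes these shares were 13.3% lower and 10.6% higher.

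**Figure D4:**
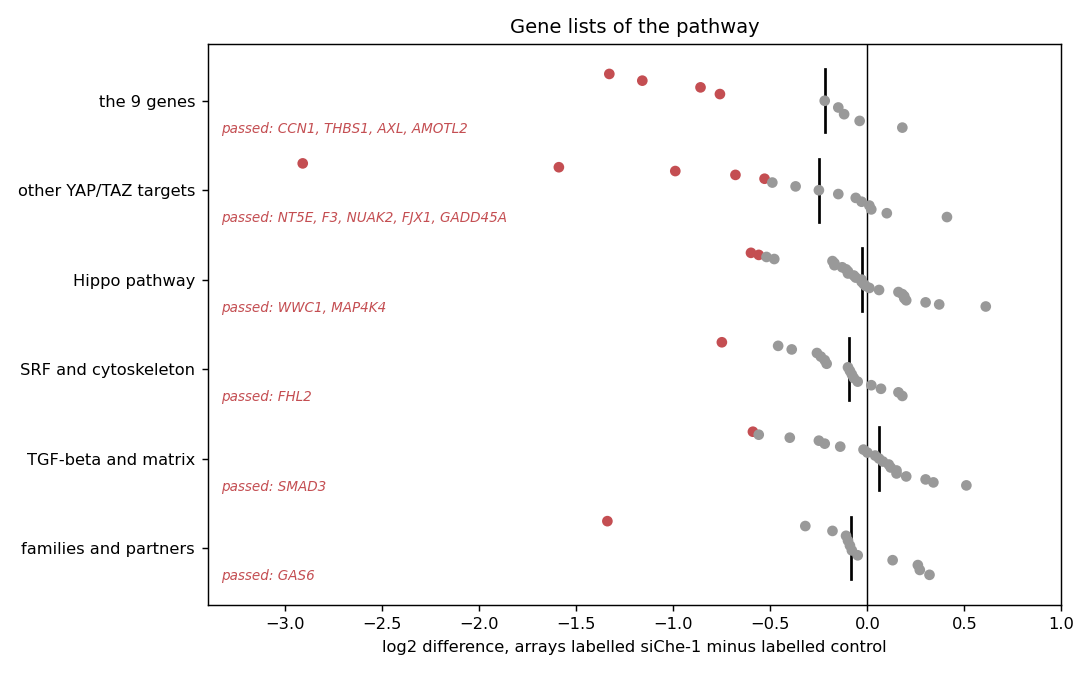
Log2 differences between the labels, siChe-1 minus control (x axis), of the genes of 6 lists (1 point per gene, spread vertically in order of the difference), red where the adjusted p was under 0.05. Black lines mark list medians, which range from -0.25 for the other YAP/TAZ targets to 0.06 for TGF-beta and matrix genes, and red text names the genes that passed, all of them below 0.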

How the data were processed

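The authors deposited log2 intensities, 1 value per probe set and array. The submitters' processing notes name RMA and Affymetrix Expression Console, and versions and settings are not given in the sources used here. Array medians over 33297 probe sets were 4.95 to 5.05. Because RMA equalises the arrays, a difference in RNA content per cell is invisible, and differences of dim genes are compressed. There are no detection calls. The platform annotation paired 19460 probe sets with 1 symbol, 1754 with several and 12083 were not listed. The probe set with the highest mean was used for the 769 genes with more than 1, leaving 18417 genes. There were 0 columns from other samples.

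The test was that of limma 3.58.1 under R 4.3.3 (lmFit, eBayes, no covariate, no filter), labelled siChe-1 minus labelled control, with Benjamini-Hochberg adjustment over all 18417 genes and a threshold of 0.05. SEs are moderated, and precision is limited by having 3 arrays a group. In simulated data for this comparison with 18417 genes, values were independent and normal with the SD of each gene, and 200 genes were changed. The fit recovered 74% of 2-fold and 99% of 4-fold changes, and 2.81% of calls were false. The simulation held no deviating array, no correlation between genes and no change below 2-fold. Its shares are therefore not error rates of the calls given here.

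The members and lists were chosen with earlier results of these data known. Named were AATF, the 9 genes, YAP1, WWTR1, TEAD1 to TEAD4, up to 5 called genes per list with the largest change, and the 3 nearest profiles of CCN1, THBS1 and AXL. TYRO3, MERTK, LIMD1, AMOT, STK3, ARHGEF17, TGFB1, TGFBR1, CCN3 to CCN6 and the markers were named outside that rule. List genes without a probe set of their own symbol were not analysed here. The alternatives were other scalings, filters, priors, weights and thresholds, the replicate number as a block, and leaving out each array.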

Additional observations from a re-analysis of the deposited data

How the results depend on the processing

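AATF, CCN1 and THBS1 kept their direction and passed under every alternative run (AATF 1.05 to 1.22 with 1 array left out). The members called were 2 of 9 when all 33297 probe sets were tested or at an adjusted p of 0.01, and 2 to 4 with 1 array left out. The other targets called were 2 of 15 in both of those settings and 2 to 5 with 1 array left out. The median of the 9 was -0.76 without the dimmest 40% of genes, which removed ANKRD1 and TGFB2, -0.40 with array weights, and -0.37 to -0.15 with 1 array left out. Over all genes, 685 passed (465 lower, 220 higher), 850 after centring on array medians (680 lower, 170 higher), 408 with all probe sets, 2865 with array weights, 261 at an adjusted p of 0.01, 3251 at an unadjusted p of 0.05, and 272 to 1565 with 1 array left out. AJUBA turned to 0.0019 after a further quantile normalization. With 1 array left out AJUBA ranged from -0.17 to 0.061, turning when control replicate 1 or 3 or siChe-1 replicate 1 was omitted, and ANKRD1 from -0.23 to 0.0083, turning without control replicate 2, with no pass in any of these. Apart from what the dim filter removed, the cause of these shifts was not tested. With the replicate number as a block, 1145 genes, 4 of the 9 and 5 of the 15 passed. The labels do not say that a number marks a shared culture, and the deviations of same-numbered arrays correlated at 0.23, 0.06 and -0.04 across genes, so the block was not used as the main fit. Dim genes such as ANKRD1 and TGFB2 may lie at background, where a difference cannot be read.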
